A study of Mus musculus with 62 samples.

Results

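Interferon-induced genes were followed in mouse neocortex as a set of 33 gene symbols listed by name. The set falls into 4 classes by role. The transcription factors were Irf1, Irf7, Irf9 and Stat2. The type I class was Ifit1, Ifit2, Ifit3, Ifit3b, Isg15, Oas1a, Oas2 and Oasl2. The GTPase class was Gbp2, Gbp3, Gbp6, Gbp7, Gbp9, Iigp1, Irgm1, Irgm2, Igtp and Tgtp2. The other 11 were Rnf213, Rsad2, Mx1, Usp18, Bst2, Ifi27, Ifitm3, Ifih1, Parp14, Trim30a and Xaf1. Of the 33 symbols, 32 had a row among the 47643 genes of the table. Gbp6 had no row under that symbol. The table holds rows Gbp6_1 and Gbp6_2, which averaged 0.890 and 0.644 TPM and were at 9.45 and 6.85 TPM in replicate 5 of mock at 8 weeks. What sets them apart is not stated, and they were not counted. A mean of at least 1 TPM (a transcript level corrected for transcript length and scaled to the same sum in every library) was required for testing, which 29 members and 14494 genes in all passed. Oas2, Mx1 and Usp18 averaged 0.294, 0.249 and 0.926 TPM and were not tested. Iigp1 and Tgtp2 passed only with replicate 5 of the 8 week mock group, since their means over the other 61 libraries were 0.896 and 0.763 TPM. Calls of these genes against that mock group follow in part from the choice of tested genes and are not counted as results, which leaves 27 members. Counts given out of 29 include both genes.

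Interferons are secreted signals of infection. Type I interferons act through a receptor whose kinases activate STAT2, which acts with IRF9 at the interferon-stimulated response element (ISRE) of genes such as Ifit, Oas and Isg15. Interferon gamma, made mainly by T and NK lymphocytes, acts through its own receptor and the gamma-activated site (GAS), and in mice strongly induces the guanylate-binding proteins (Gbp) and the immunity-related GTPases (Irg, including Iigp1, Igtp and Tgtp2), which attack the vacuoles of intracellular microbes. Both classes respond to some degree to either interferon. In the uninfected brain, a low tonic level of these transcripts is found in microglia, endothelial cells and other cells.

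All mice were female and 2 months old, and polyadenylated RNA of the neocortex was sequenced after injection of cachectic melanoma cells (CAC), of non-cachectic melanoma cells (NCAC), or mock injection. Cachexia is the loss of muscle and fat mass seen with some tumours. Each of the 3 arms was sampled at 2, 4, 6 and 8 weeks, making 62 libraries in 12 groups (7 in CAC at 8 weeks and 5 in each other group). The design text gives athymic nude mice, which lack mature T cells, whereas the sample labels give C57BL6/J, and the host strain was not resolved. No agent or allele besides the injection is given for any group. Libraries of a group are labelled as biological replicates, with no litter or cage given.

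The estimated depth was 45 to 50.8 M reads per library (median 48.3 M), at which 1 TPM corresponded to 35.4 reads of Gbp2 and 41.3 reads of Tgtp2. Slc17a7, the vesicular glutamate transporter of cortical excitatory neurons, lay between 529 and 1246 TPM in all 62 libraries. Markers of other brain regions were uneven. Summed over 8 genes, those of choroid plexus lay between 21.3 and 3121 TPM, and over 10 genes those of striatum between 205 and 2563 TPM. Those of thalamus reached 611 TPM in replicate 5 of mock at 2 weeks, where the excitatory neuron markers were lowest. Their part in the members' levels was not tested. Libraries of weeks 6 and 8 shared a sequencing lane, as did those of week 2. At 4 weeks all mock libraries and 1 of 5 NCAC libraries were on another lane than the CAC libraries, so for CAC against mock of that week lane and group cannot be told apart. In the members' levels 3 libraries stood apart from their groups, namely replicate 5 of mock at 8 weeks, replicate 2 of CAC at 6 weeks and replicate 3 of CAC at 8 weeks. Results that rest on them are given with and without them.

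The promoters of 6 members show the sequence elements that the classes share, and the members were picked to span the type I and GTPase classes. Each sequence is a RefSeq promoter on GRCm38.p6 from 250 bases before to 50 bases after the transcription start, written 5′ to 3′ on the strand of the gene. Capitals mark matches to the ISRE letters, which are GAAA, any 2 bases and GAAA, or on the other strand TTTC, any 2 bases and TTTC. They also mark the GAS letters, which are TTC, any 3 bases and GAA and read the same on both strands. ISRE and GAS matches do not share letters in these 6 windows. The intervals are chr19:34583279-34583578 (plus strand) for Ifit3, chr4:156200769-156201068 (minus strand) for Isg15, chr3:142620413-142620712 (plus strand) for Gbp2, chr11:58199306-58199605 (plus strand) for Igtp, chr11:58214727-58215026 (plus strand) for Irgm2 and chr11:49064163-49064462 (minus strand) for Tgtp2.
Ifit3: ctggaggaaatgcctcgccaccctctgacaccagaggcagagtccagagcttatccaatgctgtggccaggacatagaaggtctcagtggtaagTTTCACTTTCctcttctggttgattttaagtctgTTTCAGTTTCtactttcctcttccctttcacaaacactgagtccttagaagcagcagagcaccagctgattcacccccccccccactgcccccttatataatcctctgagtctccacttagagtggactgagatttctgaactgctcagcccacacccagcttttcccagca
Isg15: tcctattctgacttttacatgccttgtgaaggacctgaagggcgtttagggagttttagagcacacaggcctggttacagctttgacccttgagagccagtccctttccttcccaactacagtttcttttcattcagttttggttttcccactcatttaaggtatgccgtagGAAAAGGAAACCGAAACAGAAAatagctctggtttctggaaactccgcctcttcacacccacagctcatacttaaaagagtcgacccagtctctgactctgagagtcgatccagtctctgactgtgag
Gbp2: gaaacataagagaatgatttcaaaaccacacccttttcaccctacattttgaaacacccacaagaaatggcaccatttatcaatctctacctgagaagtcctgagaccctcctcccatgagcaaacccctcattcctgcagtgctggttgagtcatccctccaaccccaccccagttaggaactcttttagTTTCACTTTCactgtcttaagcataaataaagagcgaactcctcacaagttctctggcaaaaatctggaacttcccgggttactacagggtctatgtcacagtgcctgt
Igtp: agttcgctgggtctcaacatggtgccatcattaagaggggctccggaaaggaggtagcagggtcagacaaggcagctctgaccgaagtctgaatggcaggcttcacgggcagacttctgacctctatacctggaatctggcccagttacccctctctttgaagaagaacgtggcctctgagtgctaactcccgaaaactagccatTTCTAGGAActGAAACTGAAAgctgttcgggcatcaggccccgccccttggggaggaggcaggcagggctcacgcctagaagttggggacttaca
Irgm2: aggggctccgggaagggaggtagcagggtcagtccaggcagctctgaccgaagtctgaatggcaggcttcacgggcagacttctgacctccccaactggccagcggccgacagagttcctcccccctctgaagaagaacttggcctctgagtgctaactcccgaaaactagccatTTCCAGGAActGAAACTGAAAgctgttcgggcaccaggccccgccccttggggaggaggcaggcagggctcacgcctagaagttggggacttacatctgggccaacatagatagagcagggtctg
Tgtp2: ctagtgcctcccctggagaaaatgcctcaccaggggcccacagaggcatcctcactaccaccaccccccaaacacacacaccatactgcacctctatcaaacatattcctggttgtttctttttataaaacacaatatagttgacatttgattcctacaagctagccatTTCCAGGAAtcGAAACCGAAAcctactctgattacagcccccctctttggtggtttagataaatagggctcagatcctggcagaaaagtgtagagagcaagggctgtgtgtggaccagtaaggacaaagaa

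In Ifit3 there were 2 ISRE matches and in Isg15 3 overlapping ones, with no GAS match in either window. Gbp2 had a single ISRE match. Igtp, Irgm2 and Tgtp2 each had a GAS match that ended 2 bases before an ISRE match. Among the 25 members with a promoter in the table, 18 (72%) held an ISRE match, against 3.99% of 27025 genes with promoters of the same length. A gene counts if any of its promoters holds a match. A GAS match was present in 9 (36%), against 9.55%, and both in 7 (28%), against 0.614%. By class, the ISRE letters were found in 7 of 7 GTPase and 5 of 7 type I genes, and the GAS letters in 4 of 7 GTPase and 2 of 7 type I genes. These are matches of letters, and no binding was measured here.

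In position, Ifit1, Ifit2, Ifit3 and Ifit3b lie side by side on chromosome 19, and Gbp2, Gbp3 and Gbp7 on chromosome 3. Irgm1, Irgm2, Igtp and Tgtp2 are on chromosome 11 and Iigp1 is on chromosome 18. All are protein-coding in GENCODE vM21. Some members share sequence with near-identical neighbours and are uncertain as single genes. Of the 50-base stretches in the exons of Tgtp2, 86.6% also occur in other genes, chiefly Tgtp1, and for Oas1a the share is 57.6%, chiefly with Oas1g. Ifit3 and Ifit3b share sequence with each other (51.2% and 45% of their stretches). The annotated spans of Igtp (chr11:58199556-58207591) and Irgm2 (chr11:58199618-58222782) overlap on the same strand, so reads between them could be split either way.

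Most of the set was expressed at a low level. Averaged over 62 libraries, the highest members were Ifi27, a small protein of mitochondrial and nuclear membranes, at 42.6 TPM, and Ifitm3, which blocks the entry of viruses through endosomes, at 34.9 TPM. Stat2, the STAT of the type I pathway, averaged 19.2 TPM and its partner Irf9 5.36 TPM. The highest type I effectors were Ifit3 and Ifit2, which bind foreign RNA, at 15.9 and 8.73 TPM. The highest GTPases were Igtp at 4.71 TPM and Irgm1 at 4.43 TPM, both regulators of the other immunity-related GTPases. In each group 31 or 32 of the 32 rows were above 0 in every library.

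**Figure D1:**
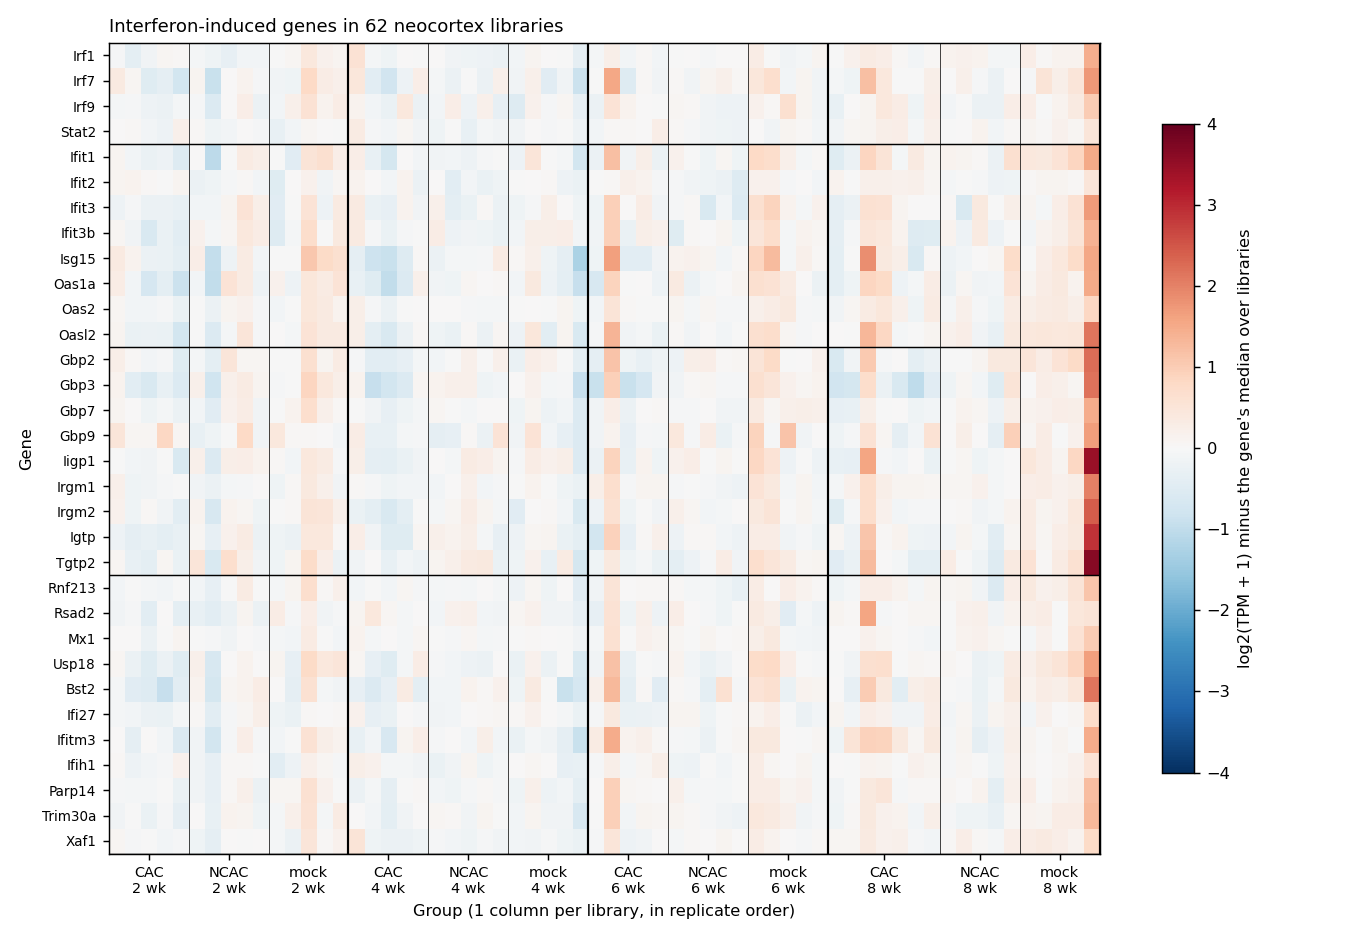
Each row is a member and each column a library, grouped by week and arm; colour is log2(TPM + 1) minus the gene's median over the 62 libraries, and the rows run from transcription factors through the type I class and the GTPase class to the other members. The darkest column is replicate 5 of mock at 8 weeks, in which 30 of 32 members had their highest level, and paler dark columns mark CAC replicate 2 at 6 weeks and CAC replicate 3 at 8 weeks.

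At 8 weeks several GTPases were lower in CAC than in mock neocortex when all libraries were used, and none passed without replicate 5 of the mock group. With all libraries, 5 of the 27 members were lower in CAC at an adjusted p under 0.05 (limma over all 14494 genes), none was higher, and 3.69% of all genes tested were lower at that threshold (8.6% in either direction). The 5 were 4 of 7 GTPases (Gbp2, Gbp3, Gbp7 and Irgm2) and Rnf213, a giant ubiquitin ligase. Iigp1 and Tgtp2, which were tested because of the high mock library, passed too, which makes 7 of 29. None of 7 type I members and none of 4 factors passed. Without replicate 5 of the mock group, 0 of 29 members passed, and 2.58% of all genes were lower at the adjusted threshold. At an unadjusted p under 0.05, 4 members were lower and 1 higher in that setting, against 18.7% of all genes in either direction, so the members' count was near that of all genes. Fitted on the CAC and mock libraries of that week alone, 0 members passed as well.

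Gbp2, a guanylate-binding protein that targets the vacuoles of microbes, ranged from 1.76 to 7.62 TPM in the 7 CAC libraries at 8 weeks (median 2.76), against 4.81, 4.11, 5.03, 6.05 and 18.8 TPM in mock replicates 1 to 5. All CAC libraries except replicate 3, the one at 7.62 TPM, lay below every mock library. The log2 fold change was -0.91 (SE 0.23, adjusted p = 0.00672), and without mock replicate 5 it was -0.57 (adjusted p = 0.0960). Gbp3, of the same family, ranged from 1.11 to 6.05 TPM in CAC (median 1.80), against 3.36, 4.10, 3.96, 3.53 and 18.4 TPM in mock. Its log2 fold change was -0.99 (SE 0.28, adjusted p = 0.0173), and -0.58 (adjusted p = 0.192) without mock replicate 5. Gbp3 showed the same layout as Gbp2, with CAC replicate 3 alone inside the mock range. Gbp7 lay between 2.71 and 4.46 TPM in CAC (median 3.28), against 4.11, 4.19, 4.51, 4.44 and 12 TPM in mock. The difference was -0.55 on the log2 scale (SE 0.14, adjusted p = 0.00724), and -0.29 (adjusted p = 0.118) without mock replicate 5.

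Iigp1 and Tgtp2, GTPases that load onto parasite vacuoles, had low levels, with medians of 0.753 and 0.663 TPM over the 62 libraries. Iigp1 ranged from 0.394 to 4.18 TPM in CAC (median 0.627), against 1.41, 1.16, 0.880, 2.12 and 18.2 TPM in mock, a log2 difference of -0.95 (SE 0.30). Tgtp2 ranged from 0.222 to 3.02 TPM in CAC (median 0.369), against 1.47, 0.728, 1.11, 1.55 and 19.7 TPM in mock, a log2 difference of -1.09 (SE 0.31). In both genes CAC replicate 3 was the highest CAC library and the other 6 lay below every mock library. Without mock replicate 5 the differences were -0.35 for Iigp1 (adjusted p = 0.438) and -0.44 for Tgtp2 (adjusted p = 0.274). At levels near 1 TPM the added 1 TPM of the log2(TPM + 1) scale makes these fold changes smaller than those of the TPM values themselves.

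Irgm2, Igtp and Irgm1 regulate other GTPases of the family, and 5, 5 and 4 of the 7 CAC libraries lay below the lowest mock library. Irgm2 ranged from 1.04 to 3.57 TPM in CAC (median 1.72), against 2.53, 2.05, 2.17, 2.77 and 14.2 TPM in mock. Its log2 difference was -0.67 (SE 0.21, adjusted p = 0.0365), and -0.24 (adjusted p = 0.451) without mock replicate 5. Igtp ranged from 3.41 to 9.91 TPM in CAC (median 4.31), against 5.39, 4.44, 5.11, 5.70 and 37.2 TPM in mock, and did not pass (log2 difference -0.68, SE 0.26, adjusted p = 0.0901). Irgm1 ranged from 3.73 to 7.12 TPM in CAC (median 4.33), against 4.91, 5.10, 4.57, 4.88 and 19.2 TPM in mock, and did not pass either (-0.40, SE 0.16, adjusted p = 0.121). In all 3, CAC replicate 3 was the highest CAC library.

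**Figure D2:**
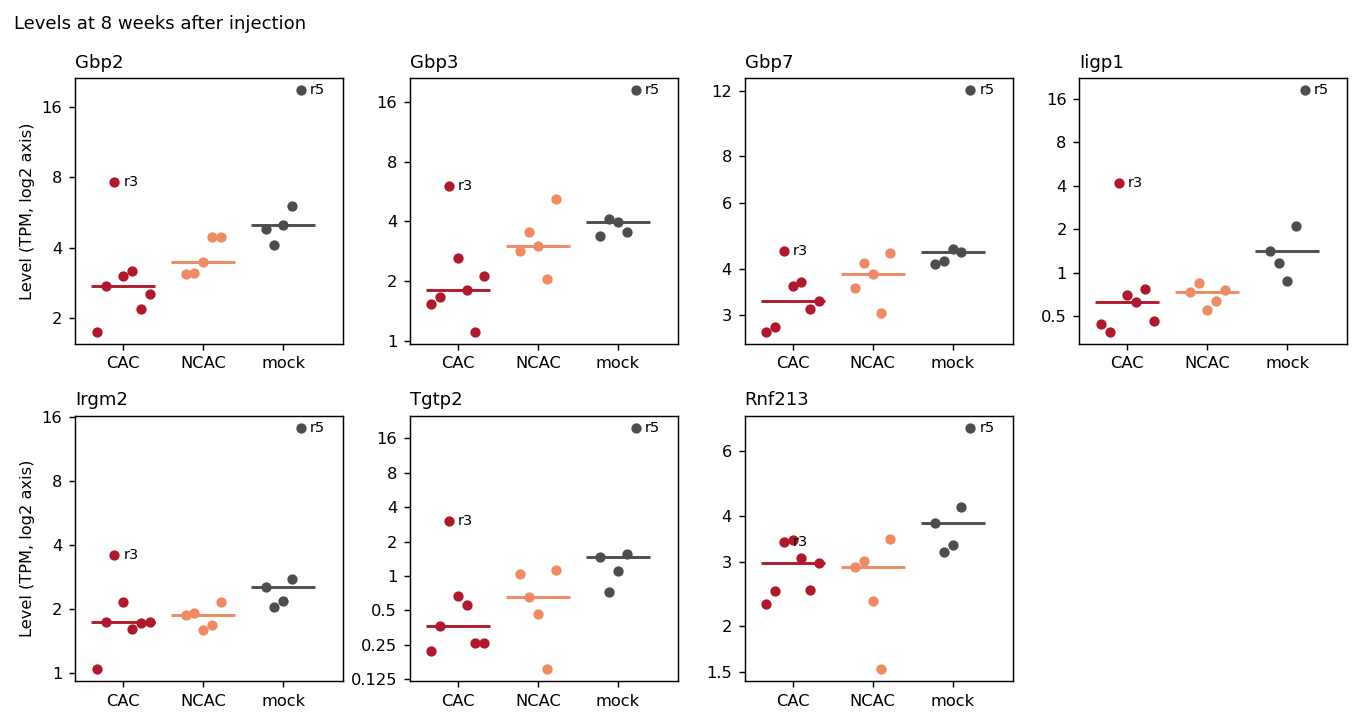
Each point is a library at 8 weeks, and the panels give the level in TPM (log2 axis) of the 7 members that passed in CAC against mock, with CAC, NCAC and mock from left to right. Mock replicate 5 is the top point of every panel and CAC replicate 3 is the top CAC point in all panels but that of Rnf213.

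Of the type I effectors, Ifit2 was nearly level between the arms. Its 7 CAC libraries lay between 8.74 and 10.3 TPM (median 10.004), against 9.19, 9.44, 9.59, 9.14 and 12.8 TPM in mock, a log2 difference of -0.02 (adjusted p = 0.915), which turned to 0.06 without mock replicate 5 (adjusted p = 0.768). Ifit3 ranged from 11.2 to 22.8 TPM in CAC (median 14.8), against 15.6, 13.8, 17.6, 22.3 and 49.6 TPM in mock, a log2 difference of -0.41 (SE 0.21, adjusted p = 0.246). The lowest adjusted p of the class was 0.0986, for Ifit1. The groups overlapped in every tested type I member.

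Rnf213 lay between 2.30 and 3.44 TPM in CAC (median 2.98), against 3.82, 3.18, 3.33, 4.23 and 6.96 TPM in mock, a log2 difference of -0.42 (SE 0.12, adjusted p = 0.0266), and -0.26 (adjusted p = 0.224) without mock replicate 5. Among the factors, Stat2 ranged from 17.1 to 23.1 TPM in CAC (median 21), against 20.6, 19.8, 21.8, 20.1 and 27.4 TPM in mock (log2 difference -0.08, adjusted p = 0.570). Irf9 ranged from 3.93 to 7.2 TPM in CAC (median 5.61), against 6.37, 5.02, 5.77, 6.89 and 11.2 TPM in mock (log2 difference -0.27, adjusted p = 0.3). The factors thus overlapped between the arms with or without mock replicate 5. The abundant members did not pass: Ifi27 had a median of 46.2 TPM in CAC and 44.8 TPM in mock (log2 difference -0.11, adjusted p = 0.630), and Ifitm3 42.3 TPM in CAC and 34.2 TPM in mock (log2 difference 0.10, adjusted p = 0.828). The sign for Ifi27 turned to 0.03 without mock replicate 5.

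**Figure D3:**
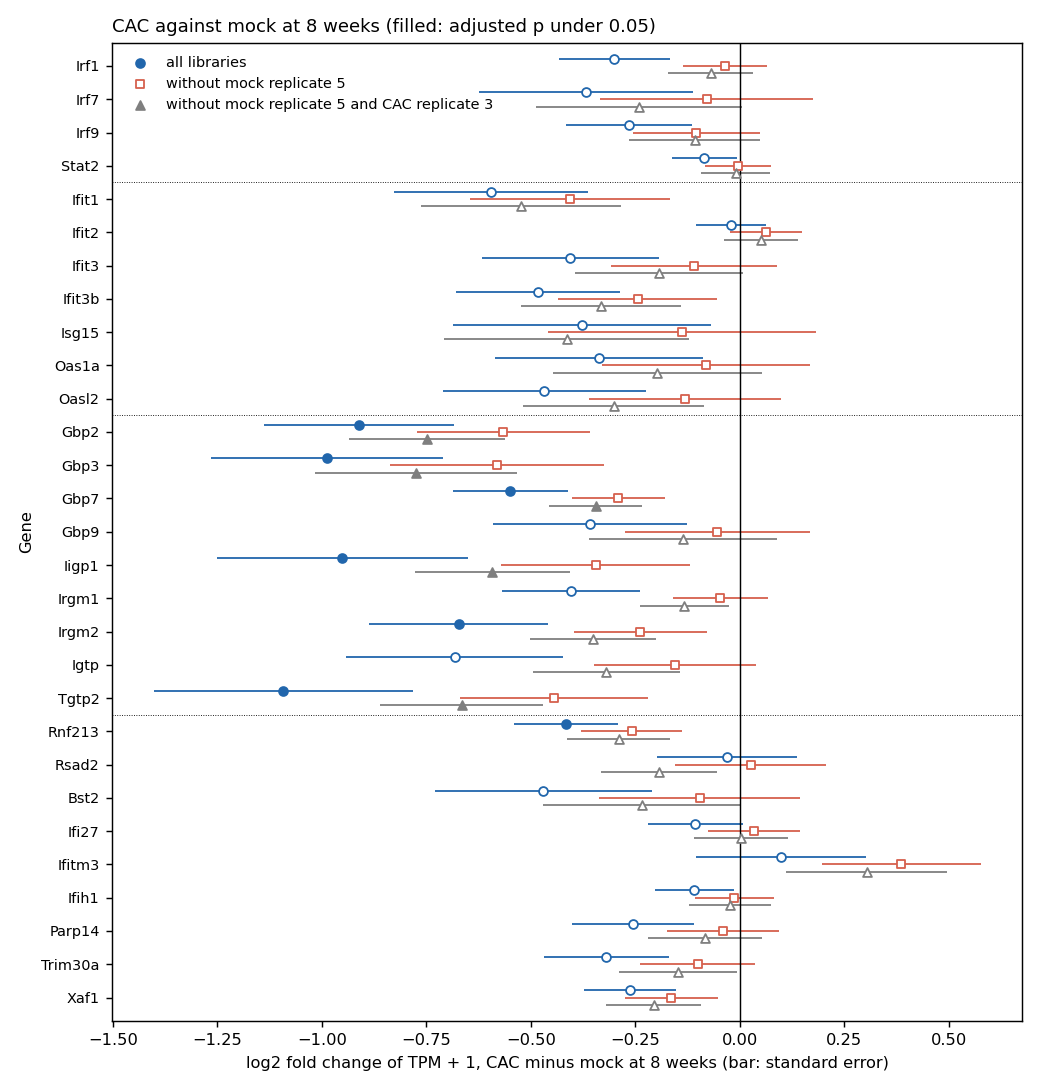
Points give the log2 fold change of TPM + 1 for CAC minus mock at 8 weeks, with standard errors as bars, for 29 tested members with all libraries, without mock replicate 5, and without mock replicate 5 and CAC replicate 3; filled points have an adjusted p under 0.05. The filled points number 7, 0 and 5, and all but that of Rnf213 belong to the GTPase class. Iigp1 and Tgtp2 are among the 7 and the 5, and the third setting leaves out a CAC library because it was high.

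The direction was shared by most members whichever libraries were used, while the size depended on them. With all libraries, 28 of 29 log2 differences were negative, with a median of -0.38, against a median of 0.02 over all genes tested. The median was -0.68 in the GTPase class and -0.41 in the type I class. Without mock replicate 5, 25 of 29 were negative, as were 47.2% of all genes. The median was then -0.10 over all members, -0.29 in the GTPase class and -0.13 in the type I class. Leaving out CAC replicate 3 alone moved the count the other way, to 11 of 29 or 9 of 27 lower members, against 4.66% of all genes. With both of these libraries left out, a setting chosen after seeing the data, 5 of 29 or 3 of 27 were lower (Gbp2, Gbp3 and Gbp7 being the 3), against 3.45% of all genes. CAC replicate 3 was left out because its GTPase levels were high, so both counts are conditioned on the outcome and show only how far a single library moves the calls. Whether the GTPase and type I classes differ in their response was not tested.

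No member passed in NCAC against mock at 8 weeks. All 29 log2 differences from mock were negative (median -0.49, against -0.04 over all genes), as were 65.6% of all genes. The 29 include Iigp1 and Tgtp2, which were tested because of mock replicate 5. Of the 29, 19 had an unadjusted p under 0.05, against 4.39% of all genes in either direction. However, 0 members and 0 genes in all passed the adjustment, and the lowest adjusted p among members was 0.896. Without mock replicate 5, 28 of 29 were negative, as were 69.2% of all genes, and the members' median was -0.21. In that setting 3 members had an unadjusted p under 0.05 (2.30% of all genes). This comparison and that of CAC with mock share their mock libraries, so they are not separate evidence.

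In 4 of 29 members the ranges of NCAC and mock did not overlap at 8 weeks, with NCAC lower. This was the case for 1.28% of all genes (1.84% without mock replicate 5, with the same 4 members). Of the 4, Iigp1 was tested only because of mock replicate 5 and is not counted as a result. Oasl2, a relative of the oligoadenylate synthetases, had 1.79, 1.97, 1.25, 1.00 and 2.23 TPM in NCAC, against 2.31, 2.37, 2.33, 2.42 and 9.77 TPM in mock. Trim30a, a TRIM family protein, had 1.28, 1.09, 1.08, 0.940 and 1.53 TPM in NCAC, against 1.59, 1.55, 1.88, 1.92 and 4.83 TPM in mock. In both genes the gap between the groups was narrow. Iigp1 had 0.741, 0.857, 0.559, 0.644 and 0.766 TPM in NCAC and Ifit2 had 8.35, 8.59, 8.43, 7.42 and 7.75 TPM, each below all of the mock libraries given above. Gbp2, at 3.09, 3.13, 3.49, 4.46 and 4.44 TPM in NCAC, overlapped the lowest mock library. The values of Oasl2 and Trim30a are printed because of this lack of overlap.

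CAC and NCAC differed little from each other at 8 weeks. No member passed (lowest adjusted p 0.0708, for Ifit2), while 6.02% of all genes did, and 2 members had an unadjusted p under 0.05, against 21.2% of all genes. Ifit2 was at 8.74 to 10.3 TPM in CAC, above all 5 NCAC libraries, and at a log2 difference of 0.25. It was the only member of 29 without overlap, as were 0.938% of all genes in that direction. The GTPases overlapped, with a median log2 difference of -0.04 in the class and 0.11 in the type I class, against 0.05 over all genes. These values include CAC replicate 3, the highest CAC library in all 9 GTPases. Without it Gbp2 reached at most 3.20 TPM in CAC, still above the lowest NCAC library. With any single library left out 0 members passed, and class medians without CAC replicate 3 are not given.

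At 6 weeks 1 member passed in CAC against NCAC. Ifit2 had 8.76, 9.16, 10.2, 9.71 and 8.45 TPM in CAC, against 8.45, 7.92, 7.73, 7.27 and 5.90 TPM in NCAC. The lowest CAC and the highest NCAC library were at about the same level. The log2 difference was 0.28 (SE 0.09, adjusted p = 0.0405), and 8.05% of all genes were higher at that threshold (9.65% in either direction). The split of all calls was 1167 higher and 232 lower, and under TMM scaling, which resets each library by a trimmed mean ratio, 279 higher and 441 lower. The adjusted p of Ifit2 ranged from 0.0219 to 0.178 over the alternatives, so this call was marginal. Mock libraries at 6 weeks averaged 9.07 ± 0.88 TPM (SD, n = 5), close to CAC at 9.25 ± 0.69 TPM and above NCAC at 7.45 ± 0.97 TPM. Of the other 28 members none passed, and 2 of the 29 had an unadjusted p under 0.05, against 28.3% of all genes.

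Against mock at 6 weeks, 0 of 29 members passed in CAC, where 1.63% of all genes did, and 1 had an unadjusted p under 0.05, against 14% of all genes. This was Gbp3, with 2.89 ± 2.5 TPM in CAC libraries, against 4.35 ± 0.93 TPM in mock libraries (log2 difference -0.63, adjusted p = 0.322). CAC replicate 2 alone was at 7.28 TPM, while the other CAC libraries lay between 1.31 and 2.86 TPM. Without CAC replicate 2 alone, or any other single library of the 2 groups, 0 members passed. Gbp3 passed, as 1 of 183 genes in all, when mock replicate 5 of week 8 was left out too. That library is not part of this comparison. The setting was chosen after seeing the data and drops a CAC library because it was high. In NCAC against mock 0 members and 0 genes in all passed. Of 29 differences, 28 were negative (median -0.23, against -0.05 over all genes), as were 71.8% of all genes. An unadjusted p under 0.05 was found in 2 members (6.58% of all genes). Gbp7 was lower in every NCAC than in every mock library (0.538% of all genes), with 3.21 to 3.69 TPM in NCAC, against 3.89 to 4.93 TPM in mock.

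At 2 weeks no member passed in any of the 3 comparisons, while 4.28% of all genes passed in CAC against mock, 8.71% in NCAC against mock and 0% in CAC against NCAC. Against mock, 25 of 29 differences were negative in CAC (median -0.30, against 0.04 over all genes) and 24 of 29 in NCAC (median -0.22, against 0.02). Of all genes, 40.2% were negative in CAC and 44.9% in NCAC. In the unadjusted test 4, 1 and 1 members had a p under 0.05 in these 3 comparisons, against 21.7%, 27.3% and 4.25% of all genes, which is no more than the share of all genes in any of them. The Gbp2 level was 3.01 ± 0.69 TPM in CAC, 3.38 ± 0.98 TPM in NCAC and 3.89 ± 1.0 TPM in mock (SD, n = 5 each), a spread within a group as large as the gaps between groups. Parp14, a mono-ADP-ribosyltransferase, was lower at 0.711 to 1.03 TPM in CAC, against 1.06 to 2.15 TPM in mock, with no overlap (1.16% of all genes). Irf1, a factor of the gamma pathway, was lower at 3.05 to 3.84 TPM in NCAC, against 4.00 to 5.84 TPM in mock, with no overlap (1.28% of all genes).

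At 4 weeks no member passed and none had an unadjusted p under 0.05 (13.1%, 0.614% and 16.3% of all genes had in CAC against mock, NCAC against mock and CAC against NCAC). All genes passed at 0.0414% in CAC against mock, 0% in NCAC against mock and 0.0069% in CAC against NCAC. The members' median log2 differences were 0.0018, 0.083 and -0.068 in these 3 comparisons, with 14, 6 and 19 of 29 negative. Of all genes, 36.1%, 58.6% and 33.2% were negative. All 9 GTPases had a negative difference in CAC against NCAC (median -0.31). Gbp2 averaged 2.50 ± 0.43 TPM in CAC, 3.34 ± 0.43 TPM in NCAC and 3.09 ± 0.79 TPM in mock.

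The class sums varied between weeks as well as between libraries. The summed type I level had a group median of 32.8, 35.9, 37 and 38.4 TPM in CAC at 2, 4, 6 and 8 weeks. It was 39.99, 35.3, 36.4 and 39 TPM in NCAC and 42.4, 37.7, 40.9 and 48.7 TPM in mock. The summed GTPase level had a group median of 19.4, 17.0, 20.7 and 20.3 TPM in CAC, 23.3, 23, 21.7 and 22.6 TPM in NCAC, and 24.1, 20.7, 25.8 and 29.3 TPM in mock. The mock median at 8 weeks was the highest of the 12 in both classes, and without replicate 5 it was 45.8 TPM for the type I class and 28.9 TPM for the GTPase class, still the highest. The GTPase sums of those 4 mock libraries, 27.6 to 32.5 TPM, lay above all 5 mock libraries at 4 weeks, 13.1 to 26.8 TPM. The sums were compared as a description, with no test.

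**Figure D4:**
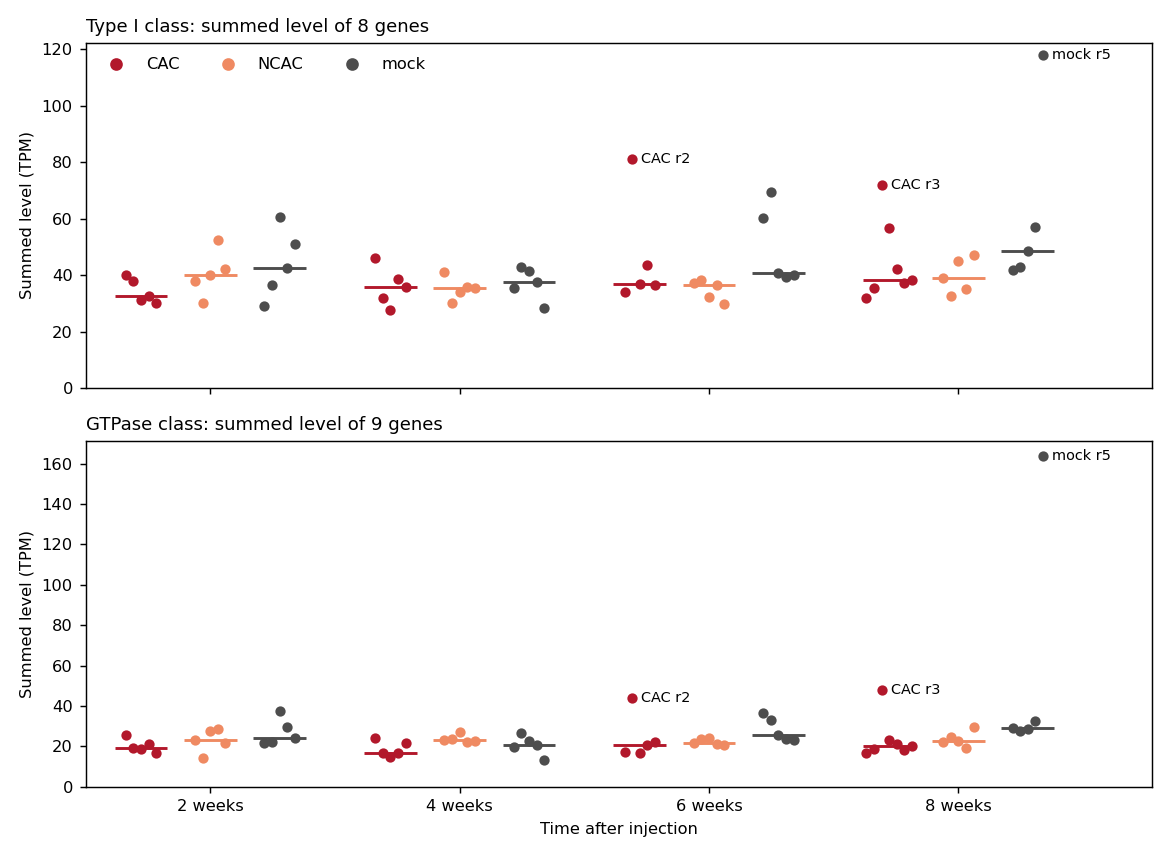
Points are the summed TPM of the type I class (8 genes) and of the GTPase class (9 genes) in each of 62 libraries, by week and arm, with CAC, NCAC and mock from left to right in each week. Mock replicate 5 at 8 weeks lies above all others at 118 TPM (type I) and 164 TPM (GTPase), and the other 61 libraries reach 81.2 TPM (type I) and 48.2 TPM (GTPase).

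The change with time was tested in mock, in CAC and as the change of the difference between them. In mock at 8 against 6 weeks 0 members and 0 genes passed. All 29 members had a positive difference (median 0.26, against 0.03 over all genes), and 10 had an unadjusted p under 0.05 (3.88% of all genes). Without replicate 5 these numbers were 20 of 29, a median of 0.05, and 0 (3.27% of all genes). In CAC at 8 against 6 weeks 15 of 29 were positive (median 0.0088), while 37.1% of all genes were negative. There, 0 members had an unadjusted p under 0.05 and 0 genes passed the adjustment. The change of the difference between CAC and mock from 6 to 8 weeks was negative in 28 of 29 members (median -0.33). Without mock replicate 5 it was negative in 21 of 29 (median -0.05). Of all genes, it was negative in 55.1% with all libraries and in 58.9% without mock replicate 5. In either case 0 members and 0 genes passed the adjustment.

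Replicate 5 of mock at 8 weeks exceeded the other 4 mock libraries in all 32 members. It was the highest of the 62 libraries in 30 of them, the exceptions being Isg15 (16.1 TPM) and Rsad2 (5.03 TPM), which peaked in CAC replicate 3 at 8 weeks. Relative to the median of the other 4 mock libraries, its GTPase levels were 2.78-fold (Gbp7) to 15.2-fold (Tgtp2) higher, with a median of 4.90-fold. Its type I levels were 1.38-fold (Ifit2) to 4.16-fold (Oasl2) higher, with a median of 2.51-fold. The summed levels were 5.66-fold higher for the GTPases and 2.57-fold for the type I class. Its GTPase sum was 139% of its type I sum, against a median of 57.8% over the 62 libraries and 79.2% in the next highest.

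CAC replicate 2 at 6 weeks was above the other 4 libraries of its group in 30 of 32 members, all but Ifit2 and Stat2, and held the second-highest level of all libraries in 18 members. Its members' median was 3.32-fold over the other libraries' median for the type I class and 2.38-fold for the GTPases, while the class sums were 2.21-fold and 2.32-fold. CAC replicate 3 at 8 weeks was above its group in 23 of 32 members, with a median of 1.92-fold for the type I class and 2.52-fold for the GTPases, and 9.63-fold for Tgtp2, and its class sums were 1.91-fold and 2.46-fold. Which class stood out more in CAC replicate 2 at 6 weeks thus depended on the measure.

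**Figure D5:**
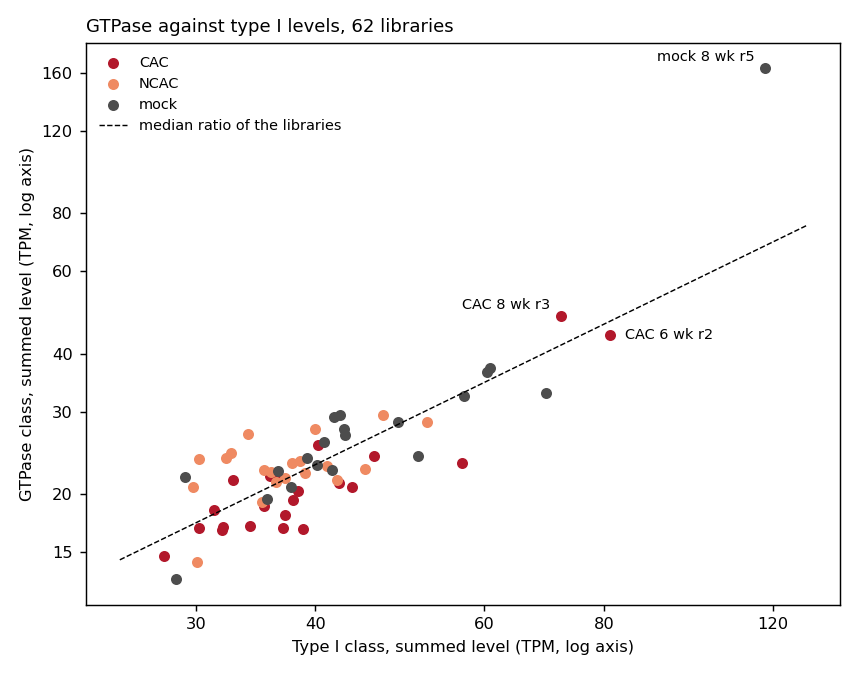
Each point is a library, with the summed TPM of the type I class on the horizontal and of the GTPase class on the vertical log axis, coloured by arm; the dashed line has the median ratio of 57.8%. Mock replicate 5 at 8 weeks lies above the line, and CAC replicate 2 at 6 weeks and CAC replicate 3 at 8 weeks lie along it.

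Markers of other cells moved with replicate 5 of mock at 8 weeks. The summed level of 10 B cell and plasma cell markers was 52.9 TPM there, against 1.82 to 3.6 TPM in the other 4 mock libraries. Jchain and Igkc, parts of secreted and surface antibodies, stood at 39.1 and 652 TPM, against at most 0.544 and 3.93 TPM in the other 4. The sum of 10 monocyte and macrophage markers was 148 TPM, against 31.6 to 38.1 TPM, and its genes did not move alike. Lyz2 alone was at 126 TPM, against 16.7 to 23 TPM. Ccr2 and Plac8 were higher at 1.70 and 2.84 TPM, against at most 0.279 and 0.543 TPM. Cd163 and Pf4 lay within the range of the other 4, and Lyve1 was lower at 0.503 TPM, against 0.968 to 1.22 TPM. The 14 T and NK cell markers summed to 94.8 TPM, against 35.5 to 60.4 TPM. Cd3g, part of the T cell receptor complex, was at 7.49 TPM and listed at 0 in the other 4. Nkg7 and Ncr1, genes of the same list, were at 8.37 and 1.18 TPM, against at most 0.245 and 0.0485 TPM. Trbc2 lay within the range of the other 4, at 29.8 TPM against 22.2 to 45.5 TPM. Klrb1c, an NK cell receptor, was listed at 0 in all 5, and in 39 of all 62 libraries. Cd74, the invariant chain of MHC class II, stood at 611 TPM, against 5.32 to 9.75 TPM. The 14 microglia markers summed to 1234 TPM, against 654 to 703 TPM, but did not move alike. C1qa, a complement component, was at 296 TPM, against 105 to 131 TPM, while P2ry12 was at 63.3 TPM, against 57.02 to 58.8 TPM, and Fcrls was lower at 2.09 TPM, against 4.83 to 7.62 TPM. Their part in the members' levels was not tested, and in bulk tissue more cells of a type and more RNA per cell cannot be told apart.

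Replicate 1 of mock at 6 weeks shared part of this pattern at lower levels. Its B cell and plasma cell markers summed to 11.9 TPM, with Igkc at 183 and Jchain at 8.66 TPM, and its monocyte markers to 47.1 TPM. All 32 members were above the median of the other 4 libraries of its group. The same held for all 32 in mock replicate 3 and in NCAC replicate 4 at 2 weeks. There the B cell and plasma cell markers summed to only 2.38 and 1.85 TPM. Without mock replicate 1 at 6 weeks, 0 members passed in CAC or NCAC against mock at 6 weeks, as with it.

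The CAC libraries that stood apart did not share this pattern in full. In CAC replicate 2 at 6 weeks the microglia markers summed to 1301 TPM, while the B cell and plasma cell markers summed to 2.02 TPM. The monocyte markers summed to 46.6 TPM in this library, with Lyz2 at 28.6 TPM. In CAC replicate 3 at 8 weeks the 6 erythroid markers summed to 22529 TPM, against a group median of 1124 TPM. Its T and NK cell markers summed to 61.8 TPM, the highest of its group. Most of this was Trbc2 at 44 TPM and Cd4 at 11.5 TPM, and Trbc2 reached 50.6 TPM elsewhere. Cd3e, Cd3g and Gzmb were at 0.201, 0.269 and 0.763 TPM, above every library but mock replicate 5 at 8 weeks. NCAC replicate 4 at 8 weeks had a higher T and NK sum, 64.4 TPM. Cd74 was at 53.4 TPM in CAC replicate 3. The part of these cells in the members' levels was not tested. Without both week 8 libraries the markers of B cells and plasma cells summed to 1.12 to 2.42 TPM in CAC and 1.82 to 3.6 TPM in mock, and to 1.80 to 2.20 TPM in NCAC.

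The interferons themselves were almost undetected. Of 21 interferon genes with a row, none reached a mean of 1 TPM, 13 were listed at 0 in all 62 libraries, Ifnb1 among them, and the highest sum in a library was 0.260 TPM. Ifng, which encodes interferon gamma, was listed at 0 in 54 libraries. It was 0.242 TPM in replicate 5 of mock at 8 weeks, against at most 0.0603 TPM in any other library. Cxcl9, a chemokine that gamma interferon induces, was at 6.43 TPM in that library, against at most 0.0495 TPM in the other 4 mock libraries.

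Counts in the pathway lists stand beside the share of all genes called in either direction, which was 8.6% in CAC against mock at 8 weeks, 1.63% at 6 weeks, 9.65% and 6.02% in CAC against NCAC at 6 and 8 weeks, and 8.71% in NCAC against mock at 2 weeks. Of 14 tested receptor and signalling genes, Socs3, a feedback inhibitor of cytokine receptors, was higher in CAC than in mock at both 6 and 8 weeks. It averaged 5.21 ± 1.2 TPM in CAC and 2.73 ± 0.35 TPM in mock at 6 weeks (log2 difference 0.72, adjusted p = 0.00317), and 5.39 ± 1.2 TPM in CAC and 3.55 ± 0.95 TPM in mock at 8 weeks (0.49, adjusted p = 0.0129). Without mock replicate 5 the 8 week difference was 0.60 (adjusted p = 0.00354). Il10rb, a receptor chain that interferon lambda also uses, was lower in CAC than in mock at 8 weeks (log2 difference -0.33, adjusted p = 0.00406, and 0.0319 without mock replicate 5). In this list 1 gene was higher and 1 lower in CAC against mock at 8 weeks, 2 higher in CAC against NCAC at 8 weeks (Socs3 and Stat3) and 3 higher at 6 weeks (Stat3, Socs3 and Pias1). In NCAC against mock at 2 weeks Ifngr2 and Jak1 were higher (log2 differences 0.25 and 0.19, adjusted p = 0.00835 and 0.0462).

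Among 12 tested sensors and inducing factors, 2 were lower in CAC than in mock at 8 weeks. Tlr3, an endosomal sensor of double-stranded RNA, had a mean of 8.05 ± 0.89 TPM in CAC libraries, against 10.7 ± 0.87 TPM in mock libraries (log2 difference -0.38, adjusted p = 0.00655, and 0.0298 without mock replicate 5). Tmem173, which encodes STING, had 3.85 ± 0.98 TPM in CAC libraries, against 5.87 ± 2.1 TPM in mock libraries (-0.48, adjusted p = 0.0130), and did not pass without mock replicate 5 (adjusted p = 0.136). Tlr3 was also lower in NCAC than in mock at 2 weeks (-0.37, adjusted p = 0.0221). In CAC against NCAC, Irf2, Eif2ak2 and Adar were higher at 6 weeks and Tlr7 and Irf2 at 8 weeks.

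Of 24 other tested type I targets, Ifitm2, a close relative of Ifitm3, was higher in CAC against mock at 6 and 8 weeks. At 8 weeks it averaged 52.3 ± 8.8 TPM in CAC and 33 ± 5.1 TPM in mock (log2 difference 0.64, adjusted p = 7.04e-04, and 3.52e-04 without mock replicate 5). Sp100 and Samd9l were lower in CAC than in mock at 8 weeks with all libraries (adjusted p = 0.0409 and 0.0224) and did not pass without mock replicate 5. In CAC against NCAC, 4 of the 24 were higher at 6 weeks (Dtx3l, Ifitm2, Slfn2 and Xrn1), when 8.05% of all genes were higher, and 1 at 8 weeks (Ifitm2), which is no more than the share of all genes.

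Of 21 other tested gamma targets, 4 were lower in CAC than in mock at 8 weeks and none higher, against 3.69% of all genes lower. These were Gbp5, Tgtp1, Cd274 (the checkpoint ligand PD-L1) and Lag3 (an inhibitory receptor of lymphocytes), with log2 differences of -0.62, -0.93, -0.48 and -1.07 (adjusted p = 0.0279, 0.0153, 0.0184 and 0.0195). None of the 4 passed without mock replicate 5 (adjusted p = 0.190 to 0.278). Tgtp1 was at 12.1 TPM in that library and had a median of 0.868 TPM over the other 61. It shares most of the sequence of Tgtp2, so the calls of these 2 genes are not separate. Whether genes of this list reach a mean of 1 TPM without that library is not given. The count of 4 and the median with all libraries may therefore follow in part from the choice of tested genes. They are not counted as results. The median of the 21 was -0.48 with all libraries and -0.03 without mock replicate 5. In the other comparisons within a week 0 of the 21 passed. For the 4 lists together, 31 calls were made over the comparisons, all with the same sign under TMM scaling and 22 still past the threshold. The calls that no longer passed were all in CAC against NCAC. They were Pias1, Irf2, Eif2ak2, Dtx3l, Ifitm2, Slfn2 and Xrn1 at 6 weeks, and Tlr7 and Irf2 at 8 weeks.

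Part of the microglia markers differed in the same comparison. Of 14 tested, 7 were lower in CAC than in mock at 8 weeks and none higher, against 3.69% of all genes lower, with P2ry12, a purine receptor of resting microglia, averaging 38.8 ± 8.5 TPM in CAC libraries, against 59 ± 2.5 TPM in mock libraries (log2 difference -0.62, adjusted p = 1.01e-04). Without mock replicate 5, 5 of the 14 were lower, against 2.58% of all genes, and P2ry12 had a log2 difference of -0.60 (adjusted p = 6.18e-04). In CAC against NCAC at 8 weeks 4 of the 14 were lower and 0 higher, against 6.02% of all genes in either direction. P2ry12 was among the 4 (38.8 ± 8.5 against 52.9 ± 4.4 TPM, -0.46, adjusted p = 0.00489). The sum of the 14 markers was not lower, with a median of 639 TPM in CAC and 617 TPM in NCAC. The part of microglia in the members' levels was not tested.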

How the data were processed

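Polyadenylated RNA libraries were made from neocortex with Trizol and a stranded mRNA kit and sequenced on an Illumina NovaSeq instrument, per the labels' protocols. That protocol also mentions LLC cells and 3 weeks, which match no group here. The authors deposited a single table of TPM values for 47643 genes and 62 libraries, in which every column sums to 1000000. The submitters' processing notes name mm10 as build. For the aligner, quantifier, annotation and use of strand, the answer is the same: not given in the sources used here.

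Members, classes and pathway lists were chosen with earlier results of these data known. Values were transformed to log2(TPM + 1). Genes averaging 1 TPM or more were fitted in a single linear model of 12 group means over 62 libraries (50 residual degrees of freedom) with limma 3.58.1 in R 4.3.3, with empirical Bayes moderation and a variance trend. P-values were adjusted by Benjamini-Hochberg over 14494 genes within each of 15 comparisons. The test was checked on simulated data. Calls have an adjusted p under 0.05, and "unadjusted" p-values come from the same test. Values per library are given for members called in any comparison and for the 2 with the highest mean TPM in each class. Of other lists up to 4 called genes per comparison are named, by lowest p. Class sums and marker sums are sums of TPM.

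Depth was estimated from whole-read steps of TPM times GENCODE vM21 exon length (of 207329 values of 0.5 to 10 reads, 86.3% lay within 0.05 of a whole number), and intervals for counting error are not given. No 2 libraries were identical, and the highest correlation of 2 was 0.9943. Alternatives were a pseudocount of 0.1, no filter, TMM scaling of TPM (the trimmed mean of log ratios to a common library, trimming 0.3 of ratios and 0.05 of levels), no variance trend, a fit of only the groups compared, a lane term at 4 weeks, replicate number as block, 3 libraries left out (mock replicate 5 at 2 weeks, CAC replicate 1 at 4 weeks, CAC replicate 3 at 8 weeks) and each library left out in turn.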

Additional observations from a re-analysis of the deposited data

Results flagged for a closer look

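For the 15 members with values per library and for both class sums, the highest and the lowest library of each group were compared with the rest by Dixon's ratio, in 204 sets. In 35 sets a library lay beyond the 95% critical value, and 32 of the 35 fell on 3 libraries. Chance gives about 1 of 20 only for independent sets, and these sets were not independent. The sums repeat members, and members rose together in the same libraries. Several members were also listed because of calls that did not pass without 1 of these 3 libraries. The 35 sets are therefore a description, and their number cannot be set against chance.

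Replicate 5 of mock at 8 weeks was far above its group in 16 sets. In the type I class these were Ifit2 at 12.8 TPM, Ifit3 at 49.6 TPM and the class sum at 118 TPM, for which the next libraries had 9.59, 22.3 and 57.1 TPM. All 8 GTPases with values per library were among them. Gbp2 was at 18.8, Gbp3 at 18.4 and Gbp7 at 12 TPM. Irgm1 was at 19.2, Irgm2 at 14.2 and Igtp at 37.2 TPM. Iigp1 was at 18.2 TPM, Tgtp2 at 19.7 TPM and the class sum at 164 TPM. The factor Stat2 was at 27.4 TPM, and of the other members Rnf213 was at 6.96, Ifi27 at 71.5 and Ifitm3 at 91.2 TPM.

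Replicate 2 of CAC at 6 weeks was far above its group in 9 sets, with Gbp2 at 8.17, Gbp3 at 7.28, Iigp1 at 2.28, Irgm2 at 3.35 and Tgtp2 at 1.19 TPM. Rnf213 was at 4.29 and Ifitm3 at 90.6 TPM there, and the sums were 81.2 TPM for the type I class and 43.8 TPM for the GTPase class.

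Replicate 3 of CAC at 8 weeks was far above its group in 7 of the sets checked, which were all of the GTPase class. Members outside the listed 15 were not checked. Among these, Isg15, Rsad2 and Irf7 were at 16.1, 5.03 and 4.25 TPM there. The other 6 CAC libraries reached at most 5.11, 1.17 and 2.11 TPM. Of the 8 type I members, 6 were above those other libraries, and Ifit2 and Oas2 were not. Gbp2 was at 7.62, Gbp3 at 6.05, Iigp1 at 4.18, Irgm1 at 7.12, Igtp at 9.91 and Tgtp2 at 3.02 TPM, and the class sum was 48.2 TPM.

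The other 3 sets were at 2 weeks. Gbp7 was at 6.30 TPM in mock replicate 3 (next 4.33 TPM). Iigp1 was low at 0.144 TPM in CAC replicate 5 (next 0.583 TPM) and at 0.194 TPM in NCAC replicate 2 (next 0.913 TPM).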

How the results depend on the processing

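In 12 of 15 comparisons 0 members passed under any setting. In CAC against mock at 8 weeks 7 members of 1247 genes in all passed. The counts were 0 of 950 when only the groups compared were fitted, 12 of 2021 with the 3 libraries left out, 1 (Gbp2) of 867 without mock replicate 5 and CAC replicate 2 of week 6, and 5 of 1279 without mock replicate 5 and CAC replicate 3. Leaving out each library in turn gave 0 to 11, namely 0 of 860 without mock replicate 5, 11 of 1763 without CAC replicate 3, and 4 of 767, 4 of 903 and 3 of 721 without CAC replicates 1, 2 and 6. In CAC against NCAC at 6 weeks Ifit2 passed, but 0 members did with no filter, with TMM scaling, or with only the groups compared, and 0 to 1 with a library left out. In CAC against mock at 6 weeks 0 members passed, also with any single library left out, and 1 (Gbp3) of 183 without both highest libraries. The cause of these changes was not tested.

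The replicate numbers did not pair the libraries: 19 of 60 same-numbered pairs correlated above 0.1, with a range of -0.25 to 0.28. With the number as a block, 1 member (Gbp7) passed in CAC against mock at 8 weeks, of 498 genes in all.

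Ifit2 in CAC against mock at 8 weeks changed sign to 0.0036 without CAC replicate 2, to 0.062 without mock replicate 5 or both highest libraries, and to 0.051 without mock replicate 5 and CAC replicate 3. Ifi27 changed sign to 0.035, 0.035 and 0.0031 in the last 3 of these settings. Leaving out each library in turn gave -0.049 to 0.062 for Ifit2 and -0.18 to 0.035 for Ifi27. TMM scaling moved no median of all genes by over 0.1.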
